A study of Homo sapiens with 4 samples.

Results

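Forkhead transcription factors were examined in H9, a widely used line of human embryonic stem cells. The genes were chosen by name alone, as every row of the expression table whose symbol has the form of a forkhead gene (FOX, a subfamily letter and a number) and that is not a pseudogene, which gave 51 genes of the 60671 in the table. The rows FOXO1B and FOXN3P1 have such names but are annotated pseudogenes, and they were left out. Poly(A)-selected RNA from 4 libraries was sequenced, 2 of control H9 cells and 2 of H9 cells labelled CFIm25 KO+ 3Flag-CFIm25 overexpression, called KO+OE here. CFIm25, encoded by NUDT21, is a subunit of the cleavage factor that helps to choose where an mRNA is cut and polyadenylated. Per the study, the edited cells keep a low level of a shortened CFIm25 protein, and the tagged protein was returned by lentivirus to a single edited clone. Both groups were grown undifferentiated in mTeSR medium. Per the study, edited cultures were selected on puromycin and cloned from single cells, and the tagged protein came in a vector with a Neo marker. The study speaks of mock control cells where the labels read control H9. Cloning, drug selection and vector may therefore differ between the groups. Edited cells without the tagged protein were not analysed here, so the comparison asks how the re-expressing line stood against control cells.

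Forkhead proteins bind DNA through a winged-helix domain and are sorted into lettered subfamilies by the sequence of that domain. Some act in nearly every cell, such as FOXM1 in cell division, the FOXO factors downstream of insulin and PI3K signalling and the FOXK factors with chromatin corepressors. Others set up single lineages, such as FOXA1 and FOXA2 in endoderm, FOXF1 and FOXC1 in mesoderm and FOXJ1 in cells with motile cilia. FOXH1 and FOXD3 are known from the pluripotent cells of the early embryo, FOXH1 as the DNA-binding partner of the SMAD proteins that carry Nodal signals.

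The unit of the values is not named, and they were read as TPM, the share of transcripts per length scaled to a common total. On that reading, levels may be compared between genes and between libraries. Each library summed to between 986853 and 987078 TPM and listed between 12179 and 12332 genes at 1 TPM or more. Read counts were not used here and the depth of each library is unknown. NUDT21 stood at 161 and 152 TPM in control against 162 and 157 TPM in KO+OE, and its RNA does not tell the groups apart (log2 fold change 0.03, limma adjusted p = 0.980). Of 12 pluripotency markers, 11 were at a mean of 1 TPM or more, POU5F1 the highest at 2164 to 2212 TPM, and the remaining marker was at 0.16 and 0.13 TPM in control against 0.12 and 0.07 TPM in KO+OE. The summed level of the 12 was 3463 to 3481 TPM in control and 3452 to 3454 TPM in KO+OE. Of the 10 endoderm, 8 mesoderm and 8 neural or neural crest markers, 2, 2 and 3 reached that level. The endoderm ones were GATA6, at 4.35 to 8.39 TPM, and CER1, at 0.59 to 1.40 TPM. The mesoderm ones were KDR, at 7.79 to 8.37 TPM, and TBX6, at 1.61 to 2.64 TPM. The neural or neural crest ones were NES, OTX2, at 8.77 to 11.3 TPM, and SOX10, at 1.97 to 2.43 TPM. SOX17 was listed at 0 in all 4 libraries, TBXT at no more than 0.22 TPM and PAX6 at no more than 0.32 TPM, against 79.6 to 82.8 TPM for NES, which pluripotent cells also express. The labels do not say that the libraries of a group came from separate cultures, so the p-values below speak only to these samples. They set each difference against a spread that limma draws in part from genes of like level.

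A small set of forkhead genes carried most of the family's RNA. Of the 51 genes, 18 averaged 1 TPM or more over the 4 libraries and are called expressed here, 7 of them at 5 TPM or more and 11 between 1 and 5 TPM. Of the 33 below that level, 10 were listed at 0 in every library, 12 were above 0 but under 0.1 TPM in every library, 7 reached 0.1 TPM but not 0.5 TPM, and 4 reached 0.5 TPM in at least 1 library. Summed over the 51 genes the level was 300.5 and 302.5 TPM in the control libraries and 298.8 and 296.2 TPM in the KO+OE libraries, which gives 301.5 ± 1.43 TPM (SD, n = 2) against 297.5 ± 1.84 TPM (SD, n = 2). The groups did not overlap in this sum, but with 2 libraries against 2 the smallest p that an exact permutation test allows is 0.333. The log2 ratio of the sums was -0.02, and -0.0065 after rescaling by median ratios. FOXH1 alone made up 41.5% of the sum, and FOXH1, FOXM1, FOXK2, FOXA3 and FOXJ1 together 82.8%.

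**Figure D1:**
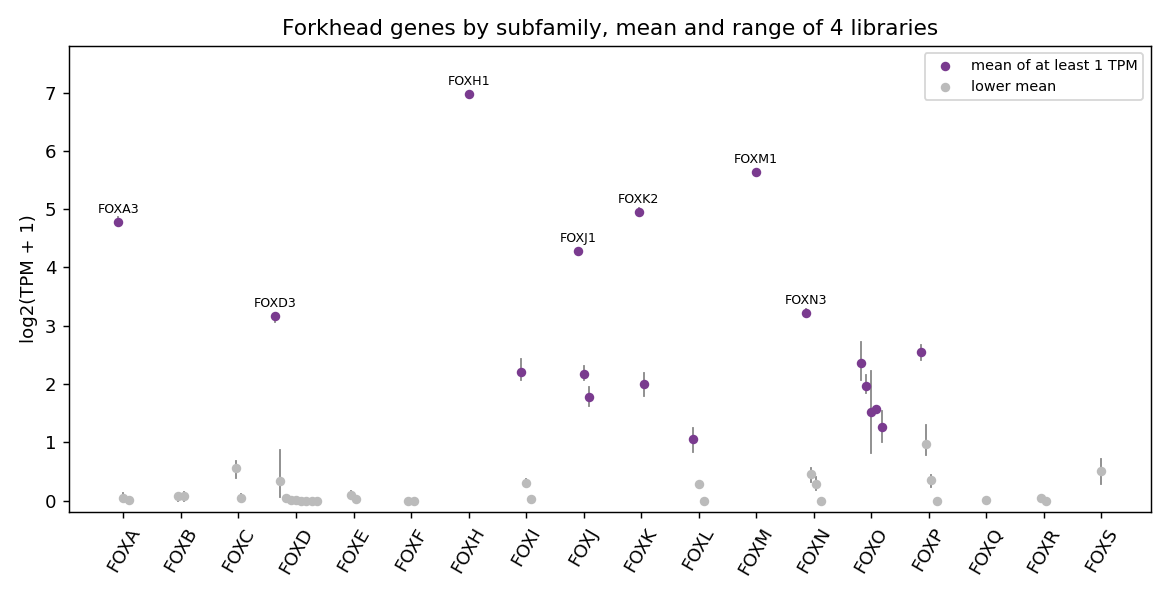
The forkhead genes by subfamily, with log2(TPM + 1) on the vertical axis. Each point is the mean of the 4 libraries and each line runs from the lowest to the highest library, and the 7 genes with a mean of 5 TPM or more are named. The subfamilies FOXH, FOXM, FOXO, FOXJ and FOXK had every one of their genes at a mean of 1 TPM or more, and 7 of the subfamilies shown had none.

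Levels were uneven within subfamilies. The 5 FOXO, 3 FOXJ and 2 FOXK genes were all expressed. In contrast, 1 of 9 FOXD, 1 of 4 FOXN, 1 of 4 FOXP, 1 of 3 FOXA, 1 of 3 FOXI and 1 of 3 FOXL genes were, and none of the FOXB, FOXC, FOXE, FOXF, FOXQ, FOXR and FOXS genes.

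Promoter sequences are shown for 4 genes that the results turn on. FOXA3 and its close relative FOXA1 stood far apart in level, and FOXD3 was the only expressed FOXD gene. FOXO4 had the largest fold change between the groups among the expressed genes on the log2(TPM + 1) scale. With a pseudocount of 0.1 instead of 1, FOXL2 had the larger one, a log2 fold change of -0.58 against -0.55 for FOXO4. Each sequence is the 250 bases before the RefSeq start on GRCh38.p14, read 5′ to 3′ on the gene's strand. The GC box (GGGCGG, or CCGCCC on the other strand) and the E-box (CACGTG) are in capitals. FOXA3 lies at chr19:45864076-45864325 on the plus strand, FOXA1 at chr14:37595250-37595499 on the minus strand, FOXD3 at chr1:63322317-63322566 on the plus strand and FOXO4 at chrX:71095601-71095850 on the plus strand.
FOXA3: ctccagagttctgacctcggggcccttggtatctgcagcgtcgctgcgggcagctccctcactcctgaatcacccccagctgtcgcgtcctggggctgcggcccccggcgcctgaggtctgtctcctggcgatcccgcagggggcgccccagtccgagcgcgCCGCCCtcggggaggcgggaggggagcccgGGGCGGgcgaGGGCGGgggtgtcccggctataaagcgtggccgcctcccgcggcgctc
FOXA1: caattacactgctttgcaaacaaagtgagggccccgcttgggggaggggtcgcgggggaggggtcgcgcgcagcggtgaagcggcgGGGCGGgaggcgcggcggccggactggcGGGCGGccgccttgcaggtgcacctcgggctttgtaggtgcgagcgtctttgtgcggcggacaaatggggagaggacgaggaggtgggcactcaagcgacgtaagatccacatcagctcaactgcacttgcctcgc
FOXD3: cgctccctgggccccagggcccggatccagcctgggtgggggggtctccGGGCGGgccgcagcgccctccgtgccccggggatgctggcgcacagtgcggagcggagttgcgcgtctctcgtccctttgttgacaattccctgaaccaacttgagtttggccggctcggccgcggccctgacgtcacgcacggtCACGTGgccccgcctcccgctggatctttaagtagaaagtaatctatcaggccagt
FOXO4: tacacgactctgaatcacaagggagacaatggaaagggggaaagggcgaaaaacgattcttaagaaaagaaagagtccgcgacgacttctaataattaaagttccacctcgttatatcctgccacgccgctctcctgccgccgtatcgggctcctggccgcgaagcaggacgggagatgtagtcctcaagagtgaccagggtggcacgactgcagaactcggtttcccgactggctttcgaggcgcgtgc

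The FOXA3 window holds 28 CpG pairs and 3 GC boxes, and that of FOXA1 26 CpG pairs and 2 GC boxes, although FOXA3 was at a mean of 26.5 TPM and FOXA1 at 0.03 TPM. The FOXD3 window holds 24 CpG pairs, 1 GC box and 1 E-box. The FOXO4 window has 21 CpG pairs and neither motif. RefSeq promoters were found for 40 of the 51 genes, FOXH1, FOXM1 and FOXJ1 not among them. A GC box on either strand was in 65.0% of these 40 windows and in 42.6% of 35116 promoter windows of the same length, and the E-box in 7.50% against 6.35%. CCAAT on either strand was in 25.0% against 32.0%. The forkhead core motif TGTTTAC was in none of the 40 windows and in 2.98% of all, and the octamer ATTTGCAT in none and in 1.63%. These matches describe letters in a fixed window and are not binding sites.

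The forkhead genes of pluripotent cells were level between the groups. FOXH1, the SMAD partner in Nodal signalling, was listed at 123 and 128 TPM in control against 122 and 125 TPM in KO+OE. It was the highest forkhead gene and rank 880 by mean among the 12319 genes tested. The groups overlapped, and limma put the difference at -0.03 on the log2(TPM + 1) scale (95% confidence interval -0.14 to 0.08, adjusted p = 0.976). Of its exon bases, 39.2% lie opposite exons of KIFC2, which was at 5.49 to 6.80 TPM, far below FOXH1. Whether the authors' counting used strand is not given in the sources used here.

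FOXD3, a repressor that marks pluripotent cells and later the neural crest, was at 8.12 and 8.34 TPM in control and 8.22 and 7.37 TPM in KO+OE. The KO+OE libraries lay on both sides of control replicate 1, and the log2 fold change was -0.07 (95% confidence interval -0.33 to 0.19). The divergent gene FOXD3-AS1 was far higher, at 227 and 207 TPM in control and 224 and 206 TPM in KO+OE, and its exons lie opposite 24.1% of the exon bases of FOXD3. Without strand, reads there cannot be told apart, so the level of FOXD3 is uncertain.

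The pathway around FOXH1 was measured through 21 genes of Nodal ligands, receptors, SMADs, corepressors and targets, of which 13 were tested. None passed an adjusted p of 0.05 in limma and none an unadjusted p of 0.05. The median log2 fold change was 0.01, against -0.01 over all genes tested. The 2 highest were DRAP1, a repressor of FOXH1 activity, at 384 to 402 TPM, and TGIF1, a SMAD corepressor, at 239 to 265 TPM. The 8 genes not tested stayed at or under 0.95 TPM, among them the mesendoderm targets EOMES, MIXL1 and GSC. The feedback inhibitors LEFTY1 and LEFTY2 were at 15.6 to 17.9 TPM and 2.55 to 3.24 TPM. The ligand gene NODAL was at 5.30 to 5.70 TPM. FOXH1 RNA was thus abundant while EOMES, MIXL1 and GSC were at no more than 0.59 TPM and NODAL, LEFTY1 and LEFTY2 were expressed. FOXH1 activity was not measured.

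FOXM1, which drives genes of the G2 and M phases, was the second highest, at 47.2 and 49.8 TPM in control and 50.3 and 47.4 TPM in KO+OE. The libraries of the groups interleaved. The log2 fold change was 0.01 (95% confidence interval -0.14 to 0.16, limma adjusted p = 0.990). Of the exon bases of FOXM1, 22.0% lie opposite ITFG2, which was at 12.8 to 16.6 TPM.

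Of 25 genes that act with FOXM1 or are its mitotic targets, 22 were tested and 0 passed an adjusted p of 0.05 in limma. Their summed level was 1816 to 1825 TPM in control and 1823 to 1843 TPM in KO+OE, ranges that overlap. CKS1B, a cofactor of cyclin-dependent kinases, was the highest at 406 to 419 TPM, and CDC20, an activator of the anaphase-promoting complex, followed at 273 to 281 TPM. At an unadjusted p of 0.05 in limma, 2 of the 22 passed, 1 higher and 1 lower, where 5.33% of all genes tested did. LIN37, a subunit of the DREAM and MuvB complexes, was at 8.12 and 8.64 TPM in control and 12.3 and 11.8 TPM in KO+OE. Its groups were apart, with a log2 fold change of 0.48 (limma unadjusted p = 0.00267, adjusted p = 0.705), and the unadjusted p stayed between 0.0104 and 0.0236 with any library left out. TOP2A, which untangles DNA before division, was at 4.81 and 4.44 TPM in control and 3.20 and 3.40 TPM in KO+OE (log2 fold change -0.39, limma unadjusted p = 0.0255, adjusted p = 0.928). Its unadjusted p rose to between 0.0567 and 0.108 when any library was left out. Over the 22 genes the median difference was 0.02 on the log2 scale.

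**Figure D2:**
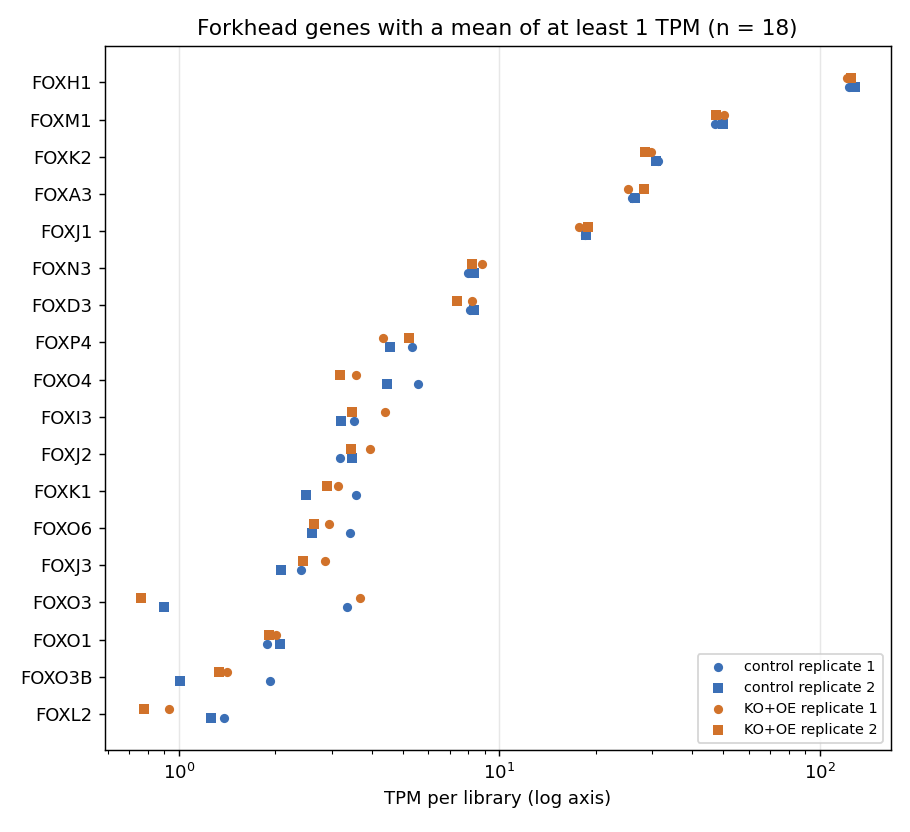
TPM in each of the 4 libraries, on a log axis, for the 18 expressed forkhead genes. Blue marks control, orange KO+OE, circles replicate 1 and squares replicate 2. Levels run from 0.76 to 128 TPM. FOXO4 and FOXL2 are the genes with every orange point well to the left of the blue ones, and FOXO3 shows replicate 1 to the right of replicate 2 in both groups.

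The FOXO factors, which move into the nucleus when PI3K and AKT signalling is low and switch on genes of cell cycle arrest, stress resistance and apoptosis, were all expressed at low levels. Their sum was 9.82 to 16.2 TPM. FOXO4 was the highest of them, at 5.57 and 4.46 TPM in control against 3.56 and 3.18 TPM in KO+OE. Both KO+OE libraries lay below both control libraries, with means of 5.02 ± 0.785 TPM against 3.37 ± 0.269 TPM (SD, n = 2 each). The log2 fold change of -0.46 (95% confidence interval -0.84 to -0.08) had a limma unadjusted p of 0.0276 and an adjusted p of 0.928, so FOXO4 was not called. It was the only expressed forkhead gene with an unadjusted p under 0.05. Its sign held with any library left out (-0.59 to -0.32), and the unadjusted p was 0.0248 without control replicate 2 but 0.131 without control replicate 1, and 0.0665 and 0.122 when KO+OE replicate 1 or 2 was left out. FOXO4 shares none of its 75-base stretches with another transcript.

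FOXO3, a widely expressed relative, was at 3.34 and 0.90 TPM in control and 3.68 and 0.76 TPM in KO+OE. Replicate 1 was high and replicate 2 low in both groups, so the groups had nearly the same mean, 2.12 ± 1.73 and 2.22 ± 2.07 TPM (SD, n = 2 each), while the 95% confidence interval of their difference ran from -1.55 to 1.55 on the log2 scale. FOXO3B, a near-copy on chromosome 17, was at 1.92 and 1.01 TPM in control and 1.41 and 1.33 TPM in KO+OE. Of the 75-base stretches of FOXO3, 29.2% occur in other transcripts, and of those of FOXO3B 61.5%, so reads may be split between them and each value is uncertain. Their sum kept the pattern, at 5.26 and 1.91 TPM in control and 5.09 and 2.09 TPM in KO+OE. Over all genes tested, 35 had a difference of 3-fold or more between replicates (after adding 0.05 TPM) with the same replicate number high in both groups, and 32 with different numbers high. The labels do not say what a replicate number stands for, and what sets the FOXO3 values apart was not tested.

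FOXO1 was steadier, at 1.89 and 2.07 TPM in control and 2.01 and 1.91 TPM in KO+OE. FOXO6, known from brain and liver, was at 3.43 and 2.60 TPM in control and 2.95 and 2.64 TPM in KO+OE. In both the groups overlapped, and the 95% confidence intervals of the log2 fold changes were -0.40 to 0.38 and -0.50 to 0.35.

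Of 16 regulators of the FOXO proteins, 13 were tested and 0 passed an adjusted p of 0.05 in limma. The 14-3-3 genes YWHAE and YWHAQ, whose products hold phosphorylated FOXO in the cytoplasm, were the highest at 341 to 353 TPM and 164 to 179 TPM. SGK1, a kinase that phosphorylates FOXO factors, was the only 1 of the 13 with an unadjusted p under 0.05. Of all genes tested, 5.33% had one. SGK1 was at 10.8 and 8.30 TPM in control and 7.15 and 6.25 TPM in KO+OE. Its groups did not overlap (log2 fold change -0.45, limma unadjusted p = 0.0311, adjusted p = 0.928), and the unadjusted p was 0.0132 without control replicate 2 and 0.0688 to 0.154 without any other library. Of 17 known FOXO targets, 11 were tested and 0 passed either threshold in limma. The highest were BBC3, which encodes the apoptosis protein PUMA, at 42.9 and 39.7 TPM in control and 37.5 TPM in both KO+OE libraries, and GADD45A, a stress gene, at 19.0 to 20.7 TPM. The median log2 fold changes were -0.01 for the regulators and 0.0033 for the targets, beside -0.01 over all genes tested.

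Widely expressed repressors formed the next group. FOXK2, which brings the SIN3A and BAP1 complexes to DNA, was at 31.3 and 30.9 TPM in control and 29.7 and 28.5 TPM in KO+OE. Its groups did not overlap, yet the difference was small, with a log2 fold change of -0.09 (95% confidence interval -0.24 to 0.05, limma adjusted p = 0.938). Its relative FOXK1 was far lower, at 3.57 and 2.49 TPM in control and 3.14 and 2.89 TPM in KO+OE. An antisense gene, AC124283.1, lies opposite 22.7% of the exon bases of FOXK2 and was at 0.32 to 1.29 TPM.

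FOXN3, a repressor linked to cell cycle checkpoints, was at 8.0 and 8.34 TPM in control and 8.82 and 8.23 TPM in KO+OE. FOXP4, a repressor of lung and gut development, was at 5.35 and 4.56 TPM in control and 4.34 and 5.22 TPM in KO+OE. Both overlapped between the groups. Of the exon bases of FOXN3, 10.4% lie opposite AL138478.1, which was at 2.08 to 3.24 TPM. FOXP1, of which pluripotent cells are known to make a form of their own by splicing, fell just under the level for testing with 0.73 and 0.88 TPM in control and 0.85 and 1.46 TPM in KO+OE. An overlapping gene on its strand, AC097634.4, covers 32.8% of its exon bases and stood at 3.58 and 0.23 TPM in control and 6.71 and 0.09 TPM in KO+OE, so how reads were divided between these genes bears on the level of FOXP1.

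FOXJ2 was at 3.19 and 3.46 TPM in control and 3.95 and 3.45 TPM in KO+OE, and FOXJ3 at 2.41 and 2.09 TPM in control and 2.86 and 2.44 TPM in KO+OE. Both are widely expressed activators. FOXJ3 did not overlap between the groups, but with a margin of 2.41 to 2.44 TPM, and its log2 fold change of 0.17 had a 95% confidence interval of -0.23 to 0.57 (limma adjusted p = 0.953). Among 18 corepressor genes that work with the FOXK and FOXP factors, 17 were tested and 0 passed either threshold in limma, with a median log2 fold change of -0.0037. MTA1, of the NuRD complex, was the highest at 122 to 124 TPM and the corepressor CTBP1 next at 81.6 to 92.9 TPM.

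Some genes best known from differentiated lineages were expressed. FOXA3, a regulator of liver and gut genes, was at 25.9 and 26.5 TPM in control and 25.3 and 28.2 TPM in KO+OE. Its relatives were near 0. FOXA1 was listed at 0 and 0.09 TPM in control, against 0 and 0.03 TPM in KO+OE, and FOXA2, the marker of definitive endoderm, at 0.02 TPM in 1 control library and at 0 in the other 3 libraries. FOXA3 has no 75-base stretch in common with other transcripts in the annotation. The log2 fold change of FOXA3 was 0.03 (95% confidence interval -0.16 to 0.22).

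FOXJ1, the regulator of motile cilia, was at 18.5 and 18.7 TPM in control and 17.7 and 18.9 TPM in KO+OE, rank 3963 of the genes tested. Of 4 ciliated cell markers, PIFO alone was tested, at 10.1 to 12.6 TPM. CCDC39 stayed at or under 0.10 TPM and RSPH1 at or under 0.49 TPM, and DNAI1 was at 0.20 and 0.36 TPM in control and 0.44 and 2.84 TPM in KO+OE. The 4 markers were thus mixed beside FOXJ1. PIFO was at a mean of 1 TPM or more, and CCDC39 and RSPH1 stayed under 0.5 TPM. DNAI1 passed 1 TPM in KO+OE replicate 2 alone. In bulk RNA a gene that is low in all cells and one that is high in a few cells cannot be told apart, nor can fewer cells of a type and less RNA per cell.

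FOXI3, known from the placodes of the head, was at 3.53 and 3.21 TPM in control and 4.40 and 3.47 TPM in KO+OE. On the log2(TPM + 1) scale no other expressed forkhead gene had a higher log2 fold change than its 0.17 (95% confidence interval -0.22 to 0.56). With a pseudocount of 0.1 FOXJ3 was higher, at 0.23 against 0.21 for FOXI3. FOXL2, the regulator of granulosa cells of the ovary, was at 1.38 and 1.26 TPM in control and 0.93 and 0.78 TPM in KO+OE. Both KO+OE libraries were below both control libraries, and the log2 fold change was -0.32 (95% confidence interval -0.79 to 0.14, limma adjusted p = 0.938). FOXL2NB, a neighbouring gene, was at 0.76 and 1.15 TPM in control and 1.11 and 1.45 TPM in KO+OE, an overlap between the groups.

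The remaining lineage regulators were close to silent. FOXF1, of lateral mesoderm and lung, was listed at 0 in all 4 libraries, as was its relative FOXF2. FOXC1, of paraxial mesoderm and the eye, was listed at 0 to 0.08 TPM. A listed 0 says only that no reads were assigned at a depth that is unknown. Among the 4 genes under the level for testing that reached 0.5 TPM in a library was FOXC2, of lymphatic vessels and mesenchyme, at 0.61 and 0.31 TPM in control and 0.49 and 0.52 TPM in KO+OE.

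FOXS1, known from neural crest derivatives, was at 0.22 and 0.32 TPM in control and 0.65 and 0.51 TPM in KO+OE. When all 26942 genes with a value above 0 were fitted it had a log2 fold change of 0.31 (limma unadjusted p = 0.0497, adjusted p = 0.873). FOXD1, of kidney stroma, was at 0.04 and 0.15 TPM in control and 0.18 and 0.82 TPM in KO+OE, most of it in KO+OE replicate 2, and 86.7% of its 75-base stretches are shared with other transcripts. In both genes the groups did not overlap. The same held for FOXD4 and FOXE1, higher in KO+OE, and for FOXB2, lower in KO+OE, all at or under 0.09 TPM. The share of all genes under the level for testing whose groups did not overlap is not given here, so these genes are not set apart.

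The other genes below 1 TPM are given by subfamily. FOXP3, FOXN4, FOXI2, FOXN2 and FOXL1 ranged from 0.13 to 0.48 TPM. The FOXB genes stayed at or under 0.11 TPM, the FOXE genes at or under 0.12 TPM, the FOXR genes at or under 0.06 TPM, and FOXI1 and FOXQ1 at or under 0.05 and 0.02 TPM. FOXD2 and the FOXD4 group of recent copies stayed at or under 0.07 TPM, and members of that group share 39.5% to 90.9% of their 75-base stretches with other transcripts where this could be computed. FOXP2, FOXN1 and FOXL3 were listed at 0 in all 4 libraries. Some genes that lie together on GRCh38.p14 were low together, where 33 of all 51 genes were below 1 TPM. FOXQ1, FOXF2 and FOXC1 lie between positions 1312098 and 1613897 of chromosome 6, and FOXF1, FOXC2 and FOXL1 between positions 86510527 and 86583478 of chromosome 16.

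Expressed and low genes differed in structure, described here without a test because members of a subfamily are related. Of the 18 expressed genes, 2 (FOXD3 and FOXL2) have a canonical transcript of a single exon, against 15 of the 31 lower genes with an annotated transcript. The windows before the start held a median of 28 CpG pairs in the 15 expressed genes with a RefSeq promoter and 14 in the 25 lower ones, where the median over all promoters was 11. GC content of the transcripts was close, with medians of 57.2% and 58.3%, and the median over all genes tested was 51.8%. Across the 49 genes with both values, Spearman's rho between level and transcript GC content was 0.04, and between level and length 0.26. Within the 18 expressed genes these were 0.24 and -0.34, and within the 31 lower ones 0.14 and 0.05, so the sign for length was not the same in the expressed genes as over all. These points share their libraries, and related genes are among them.

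**Figure D3:**
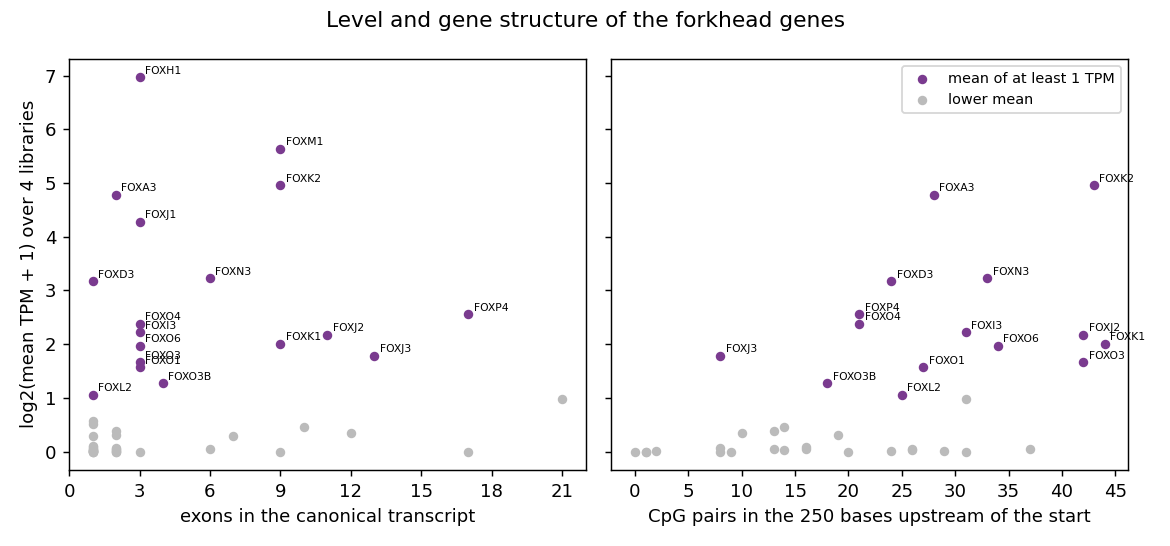
Mean level over the 4 libraries, as log2(mean TPM + 1), against the number of exons of the canonical transcript (left) and the CpG pairs in the 250 bases before the start (right). Purple genes are the expressed ones and grey genes those below 1 TPM. Most of the grey points on the left sit at 1 or 2 exons, while expressed genes span 1 to 17 exons. On the right, FOXJ3, with 8 CpG pairs, is the only expressed gene under 18.

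Between the groups, none of the 18 expressed forkhead genes passed an adjusted p of 0.05 in limma, where the share over all genes tested was 0.00812%. At an unadjusted p under 0.05 the count was 1, FOXO4, which is 5.56% of the 18 and close to the 5.33% of all genes tested. In 4 genes (FOXK2, FOXO4, FOXJ3 and FOXL2) the groups did not overlap, 22.2% of the 18 against 34.1% of all genes tested. The family was therefore near or below the background by each of these counts. The log2 fold changes ran from -0.46 to 0.17, with 7 above and 11 below 0, and their median was -0.02 where that of all genes tested was -0.01. Without control replicate 1 the median was 0.04. Leaving out each library in turn changed the sign of 10 of the 18 at least once and left that of 8 the same.

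How closely the groups were bounded depended on the level of the gene. In 17 of the 18 genes the 95% confidence interval lay within 2-fold of TPM + 1 in either direction, FOXO3 being the exception. In 11 it lay within 0.5 on the log2(TPM + 1) scale. The 5 highest genes had the narrowest intervals, all inside -0.24 to 0.22. A fold change on the log2(TPM + 1) scale understates the change in TPM of low genes, most of all near 1 TPM. The intervals of FOXO1, FOXO3B and FOXL2, and to a lesser degree that of FOXO4, therefore bound less than they seem to. They do not bound the change in TPM itself to 2-fold.

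**Figure D4:**
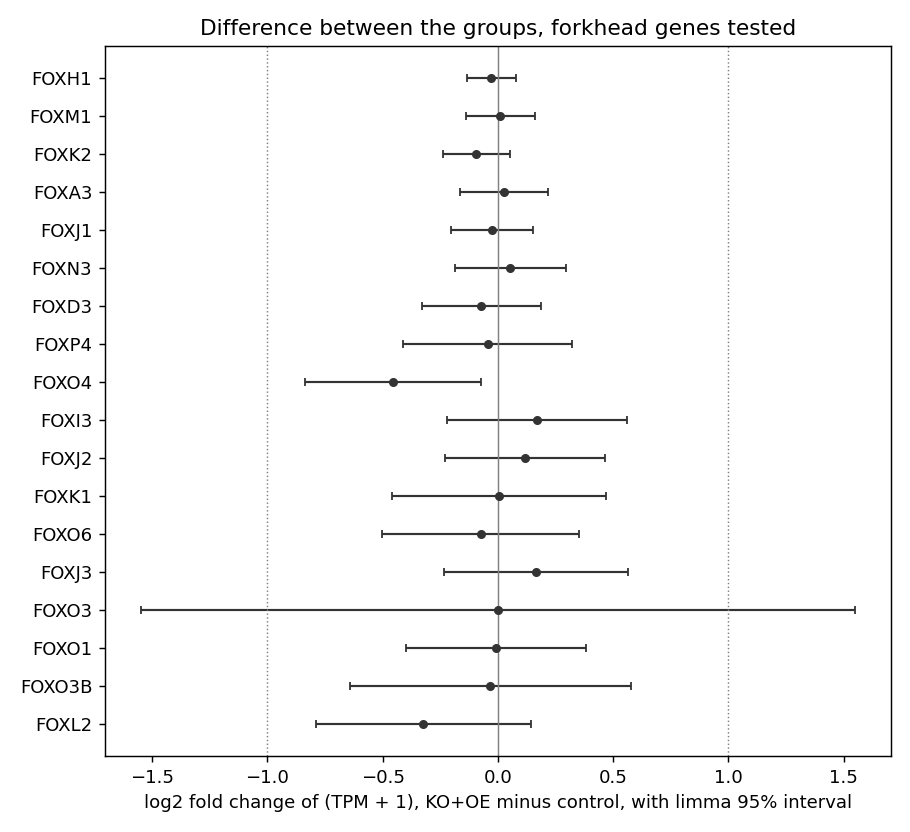
Log2 fold change of (TPM + 1), KO+OE minus control, for the 18 expressed forkhead genes, ordered by mean level from FOXH1 at the top to FOXL2 at the bottom. Bars are limma's 95% confidence intervals from 2 libraries per group and dotted lines mark 2-fold in TPM + 1, not in TPM. Only the bar of FOXO4 does not cross 0, and only that of FOXO3 passes the dotted lines.

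Across the 97 genes of the pathway lists, 76 were tested, 0 passed an adjusted p of 0.05 in limma and 3 (LIN37, TOP2A and SGK1) an unadjusted p of 0.05, which is 3.95% beside 5.33% of all genes tested. Among the markers of other lineages 1 had an unadjusted p under 0.05, the neural and epiblast factor OTX2, at 11.3 and 10.8 TPM in control and 8.77 and 9.17 TPM in KO+OE (log2 fold change -0.27, limma adjusted p = 0.928). Its unadjusted p was 0.0241, and 0.0583 to 0.108 with any library left out. The summed level of the endoderm markers was 9.09 to 10.7 TPM in control and 7.93 to 9.48 TPM in KO+OE, and that of the mesoderm markers 11.0 to 11.7 TPM and 11.1 to 11.6 TPM. The neural and neural crest markers summed to 93.8 to 96.1 TPM in control and 90.9 to 92.4 TPM in KO+OE, and their part in the values of FOXO4 and FOXL2 was not tested.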

How the data were processed

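The authors sequenced poly(A)-selected RNA of 4 H9 libraries as paired reads and deposited a table of 60671 genes with 1 column per library. Per the labels, their processing used HISAT2, featureCounts of Subread, DESeq2 and the build hg38, with the role of each not given. The unit of the deposited table is not named, and it is read as TPM because every column holds decimals and sums to nearly the same total. No counts were used, so depth is unknown and count tests were not run. There were 0 per-sample columns left unused.

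Values were placed on the scale log2(TPM + 1). Genes that averaged 1 TPM or more (12319) were compared with limma 3.58.1 in R 4.3.3 (group as the only term, mean-dependent prior, two-sided), with Benjamini-Hochberg adjustment across the genes tested. The fit was also run on simulated data, and the share of changed genes that it found is not given here. Groups and replicate numbers came from the sample titles, and the table's columns, named by the letters c and f with a number, were read as control and as the Flag-tagged line. Same-numbered libraries did not deviate together (r = -0.05 over the genes tested), so the replicate number was not a block.

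Forkhead genes and pathway lists were chosen with earlier results of these data known. Named were all members with a mean of at least 1 TPM, lower members that reached 0.5 TPM, had an unadjusted p under 0.05 without the filter or are well-known lineage regulators (FOXA1, FOXA2, FOXC1, FOXF1), and of each pathway list the 2 highest genes and those with an unadjusted p under 0.05. 1 gene of the rule is not reported here. NODAL, LEFTY1, LEFTY2, EOMES, MIXL1, GSC, FOXF2, FOXB2, FOXD4, FOXE1 and the markers given with values were named after their values were seen. Positions and promoters are from RefSeq on GRCh38.p14. Exons, lengths, GC content, overlaps and shared 75-base stretches are from the transcripts of GENCODE release 44 on GRCh37, from which no positions are given. The alternatives were a pseudocount of 0.1 or 5, testing every gene above 0, a filter at 5 TPM, rescaling by median ratios, quantile normalization, no mean-dependent prior, a replicate block and leaving out each library. Python 3.11.15 (pandas 2.3.3, numpy 2.4.6, matplotlib 3.10.9) was used for tables and plots.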

Additional observations from a re-analysis of the deposited data

How the results depend on the processing

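No forkhead gene passed an adjusted p of 0.05 in limma under any alternative run. With the replicate number as a block the number with an unadjusted p under 0.05 was 1, as without it, and 4 pathway genes instead of 3 had one. What same-numbered libraries share beyond the number is not given by the labels, and the block changed no call of a forkhead gene. Without the filter, 2 of 41 forkhead genes (FOXO4 and FOXS1) had an unadjusted p under 0.05 in limma, beside 1314 of all 26942 genes fitted. Without the mean-dependent prior, 2 of 18 (FOXO4 and FOXL2) had one, beside 688 of all 12319 genes. With the filter at 5 TPM, which removes FOXO4, the number was 0 of 7 forkhead genes, beside 412 of all 7393 genes. It was 0 to 1 with a library left out. The pathway genes with one numbered 5 without the filter and 1 to 3 with a library left out. The count of expressed forkhead genes was 7 at a minimum of 5 TPM, 16 where every library had to reach 1 TPM, and 18 to 19 with a library left out. The log2 ratio of the summed level, -0.02 as deposited, was -0.0065 after rescaling by median ratios and -0.0048 after quantile normalization, and -0.03 to -0.01 with a library left out. The median log2 fold change of the forkhead genes ran from -0.030 to 0.040 with a library left out, the highest being without control replicate 1. Of 60 medians of the pathway lists under the alternatives, 49 were kept and 11 moved by at least their SD within groups. The median of the FOXO targets was -0.053 with the filter at 5 TPM and -0.019 without the filter. That of the FOXM1 list was -0.013 without control replicate 1.

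Of 133 forkhead fold changes under alternatives that kept all libraries, 129 kept their sign. FOXO3 turned to 0.012 with a pseudocount of 5, 0.0050 with median ratios and 0.0051 with quantile normalization, and FOXO1 to 0.00094 with quantile normalization. With a library left out, 56 of 71 kept their sign, and 10 genes changed it at least once. Over the left-out libraries the log2 fold change ran from -0.060 to 0.0043 for FOXH1, -0.030 to 0.053 for FOXM1, -0.049 to 0.10 for FOXA3, -0.067 to 0.018 for FOXJ1, -0.15 to 0.066 for FOXP4, -0.19 to 0.20 for FOXK1, -0.22 to 0.075 for FOXO6, -0.71 to 0.70 for FOXO3, -0.053 to 0.034 for FOXO1 and -0.30 to 0.24 for FOXO3B. None of these genes was called. Depth is unknown, and the table rounds values to 2 decimals, which is coarse for genes under 0.1 TPM.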
